A study of Mus musculus with 6 samples.

Results

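Interferon-induced antiviral genes were followed in an erythroid cell line in which the histone methyltransferase SetD8 had been knocked down. The set holds 37 genes, listed by name, and every probe whose gene name in the array files was one of these symbols or an earlier one was taken (Ddx58 is also called Rigi, and Trim30 is now Trim30a). These 37 genes had 47 probes, out of 22227 genes with a named probe on the array; 27 genes had 1 probe and 10 had 2. Each gene was then represented by its brightest probe among those that were well above background on every array of at least 1 group. This left 26 of the 37 genes, among 14429 genes tested.

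The cells were G1E-ER-GATA-1, mouse erythroid progenitors without a Gata1 gene of their own. They carry an estrogen receptor fusion of GATA-1 that β-estradiol switches on, which starts erythroid maturation. Of the 6 arrays, 3 carried RNA from cells given a non-targeting control siRNA and 3 carried RNA from cells given a SetD8 siRNA. Both groups received siRNA at 0 h and again at 24 h, were given β-estradiol from 24 h and were collected at 48 h, so the controls had 24 h of β-estradiol too. All values come from this 1 engineered line. Whether arrays of 1 group stand for separate cultures is not stated, so p-values here measure only the spread between these samples, which may be technical.

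Type I interferons are released by cells that detect foreign nucleic acid, and they act on neighbouring cells through a receptor that activates transcription factors, among them STAT2 and IRF9. Their complex binds a DNA element, the interferon-stimulated response element, in the promoters of antiviral genes. The products include RNA sensors, enzymes that lead to RNA decay, proteins that block translation or virus release, and the transcription factors of the pathway itself. Many of these genes are also expressed at a low level without infection.

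Promoter windows from RefSeq (GRCm38.p6; 250 bases before to 50 bases after each transcription start, 300 bases in all) matched 30 of the 37 genes. No window was matched for Dhx58, Zbp1, Oas2, Mx1, Mx2, Usp18 and Parp14. The response element core was searched on both strands, as GAAA, any 2 bases and GAAA again, or its reverse complement of TTTC, any 2 bases and TTTC, with overlapping matches allowed. It was found for 16 of the 30 genes (53.3%), against 1079 of 27025 genes in the whole table (3.99%). It was found for 10 of the 21 genes with a window that passed the detection filter and for 6 of the 9 that did not. Examples from both sides of that filter are printed here on the gene's own strand, with the matches in capitals, because they show that the same element sat upstream of genes that were measured and of genes that were not. Bst2, Oas3, Isg15 and Stat2 were measured; Ifit1, Ifit3 and Rsad2 were not.
Bst2: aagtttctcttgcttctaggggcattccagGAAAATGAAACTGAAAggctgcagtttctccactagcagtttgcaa
Oas3: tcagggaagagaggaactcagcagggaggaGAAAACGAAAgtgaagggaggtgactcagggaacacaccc
Isg15: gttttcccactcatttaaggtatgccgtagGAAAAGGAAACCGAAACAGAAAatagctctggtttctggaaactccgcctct
Stat2: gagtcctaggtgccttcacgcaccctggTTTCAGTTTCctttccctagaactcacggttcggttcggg
Ifit1: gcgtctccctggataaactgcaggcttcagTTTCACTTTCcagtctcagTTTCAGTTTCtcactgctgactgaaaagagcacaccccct
Ifit3: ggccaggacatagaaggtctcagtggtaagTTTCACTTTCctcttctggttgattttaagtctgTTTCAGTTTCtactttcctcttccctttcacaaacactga
Rsad2: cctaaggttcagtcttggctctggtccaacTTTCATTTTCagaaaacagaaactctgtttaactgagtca
The stretches lie at chr8:71537557-71537632 on the minus strand for Bst2, chr5:120777695-120777764 on the minus strand for Oas3, chr4:156200845-156200926 on the minus strand for Isg15 and chr10:128270248-128270315 on the plus strand for Stat2. Those of Ifit1 and Ifit3 lie on the plus strand at chr19:34640755-34640843 and chr19:34583343-34583446, and that of Rsad2 lies on the minus strand at chr12:26456533-26456602. Relative to the start, the matches span bases -130 to -115 in Bst2, -75 to -66 in Oas3 and -78 to -57 in Isg15. A match is a description of the letters, not a measured binding site.

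The arrays differed in how much they detected. The share of probes well above background ran from 40.2% on control 2 to 82.5% on control 3 and from 60.3% to 68.6% on the SetD8 siRNA arrays, and no spot was saturated. Control 1, SetD8 1 and SetD8 2 shared a slide, control 3 and SetD8 3 shared another, and control 2 was alone on a slide scanned on another day. The targeted gene, Setd8 (Kmt5a), had levels of 4.34, 4.95 and 3.14 on the control arrays and 2.07, 1.82 and 1.83 on the SetD8 siRNA arrays, as log2 of the signal over the array's 75th percentile. All 3 knockdown arrays were below all 3 controls, with a difference of -2.24 ± 0.51 (standard error; limma adjusted p = 0.684) at this scaling and -2.07 ± 0.15 (adjusted p = 0.00851) in a second setting, normexp background correction followed by quantile normalization, called the quantile setting here. The 9 erythroid markers with a probe were detected on every array, with a summed processed signal of 393575 to 555094 on the control arrays and 303235 to 425115 on the SetD8 siRNA arrays. This sum and those below were not scaled between arrays, whose 75th percentiles ran from 132 to 258, so they do not compare the groups. After scaling, the median difference of the erythroid markers was -0.16 at the 75th percentile scaling and 0.01 in the quantile setting, and limma called 0 of the 9. Single markers differed more. Slc4a1 was lower without overlap in both settings (-1.41 and -1.19). Epb42 was higher without overlap at the first (0.84) and overlapped in the second (0.41). In the quantile setting Tfrc was lower (-0.22) and Tal1 higher (0.10) without overlap. Of 11 macrophage and granulocyte markers, 5 to 10 were detected on the control arrays and 6 to 9 on the SetD8 siRNA arrays, with summed signals of 3977 to 4736 and 3656 to 4687. Of the 5 tested markers in that list, 1 was called, Cd68 in the quantile setting (0.73 ± 0.11, adjusted p = 0.0342), where 1.46% of all genes were called higher. Csf1r differed by 0.97 ± 0.36 there (adjusted p = 0.251) and by 1.07 at the 75th percentile scaling, without overlap in both. Elane, Itgam and Adgre1 differed by 0.26, 0.04 and -0.11 in the quantile setting, and the list's median was 0.26. S100a8 and Mpo were each detected on 1 array only, and the part of these markers in the results that follow was not tested. Of 6 plasmacytoid dendritic cell markers, 3 to 6 were detected on the control arrays and 4 to 6 on the SetD8 siRNA arrays, with summed signals of 22788 to 43765 and 13214 to 22886. After scaling, the median difference of the 4 tested markers was 0.24 at the 75th percentile scaling and 0.11 in the quantile setting. Among these 4, Ly6d was detected on 5 arrays only. Of 7 lymphoid markers, 3 to 5 and 5 were detected, with summed signals of 1553 to 3209 and 2624 to 3151. Of the 5 tested lymphoid markers 0 were called, with a median of 0.20 in the quantile setting. Cd4 was higher there without overlap (1.00 ± 0.33, adjusted p = 0.206), Cd8a was lower without overlap (-0.17), and Cd3e, Nkg7 and Cd79a differed by 0.41, 0.20 and -0.19; Ms4a1 was detected on no array, and the part of these markers was not tested either. Of 5 stromal and endothelial markers, 1 to 3 and 2 to 5 were detected, with summed signals of 49.0 to 340.3 and 130.4 to 613.9. After scaling, the median difference of the 2 tested was 1.18 at the 75th percentile scaling and 0.38 in the quantile setting, and 0 were called. Col3a1, detected on 5 arrays only, differed by 2.07 with overlap and by 0.84 without overlap in the quantile setting. Pecam1 differed by 0.29 and -0.09, and the part of these markers was not tested. In such bulk RNA, fewer cells of a type and less RNA per cell cannot be told apart.

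Detection separated the subgroups. All 5 transcription factors, both double-stranded RNA effectors, and Isg15 with its protease Usp18 were well above background on all 6 arrays. Of the 6 RNA sensors and their adaptor, Ddx58, Ifih1 and Mavs were detected on all 6 arrays, Dhx58 and Zbp1 on every array except control 2, and Tlr3 on none. Among the OAS family, Oas1a and Oas3 were detected on all 6 arrays and Oasl1 on 5, whereas Oas2 and Oasl2 were each detected on 1. The 3 IFIT genes were detected on 2 or 3 arrays each and none passed the filter. In all, 19 genes were detected on all 6 arrays, 6 on 5 arrays, 1 on 4, 2 on 3, 3 on 2, 5 on 1 and 1 on none. Per array the number was 27, 19 and 33 of 37 in the controls and 29, 27 and 30 after SetD8 siRNA, with the lowest and highest counts on the control arrays that also had the lowest and highest share of detected probes.

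**Figure D1:**
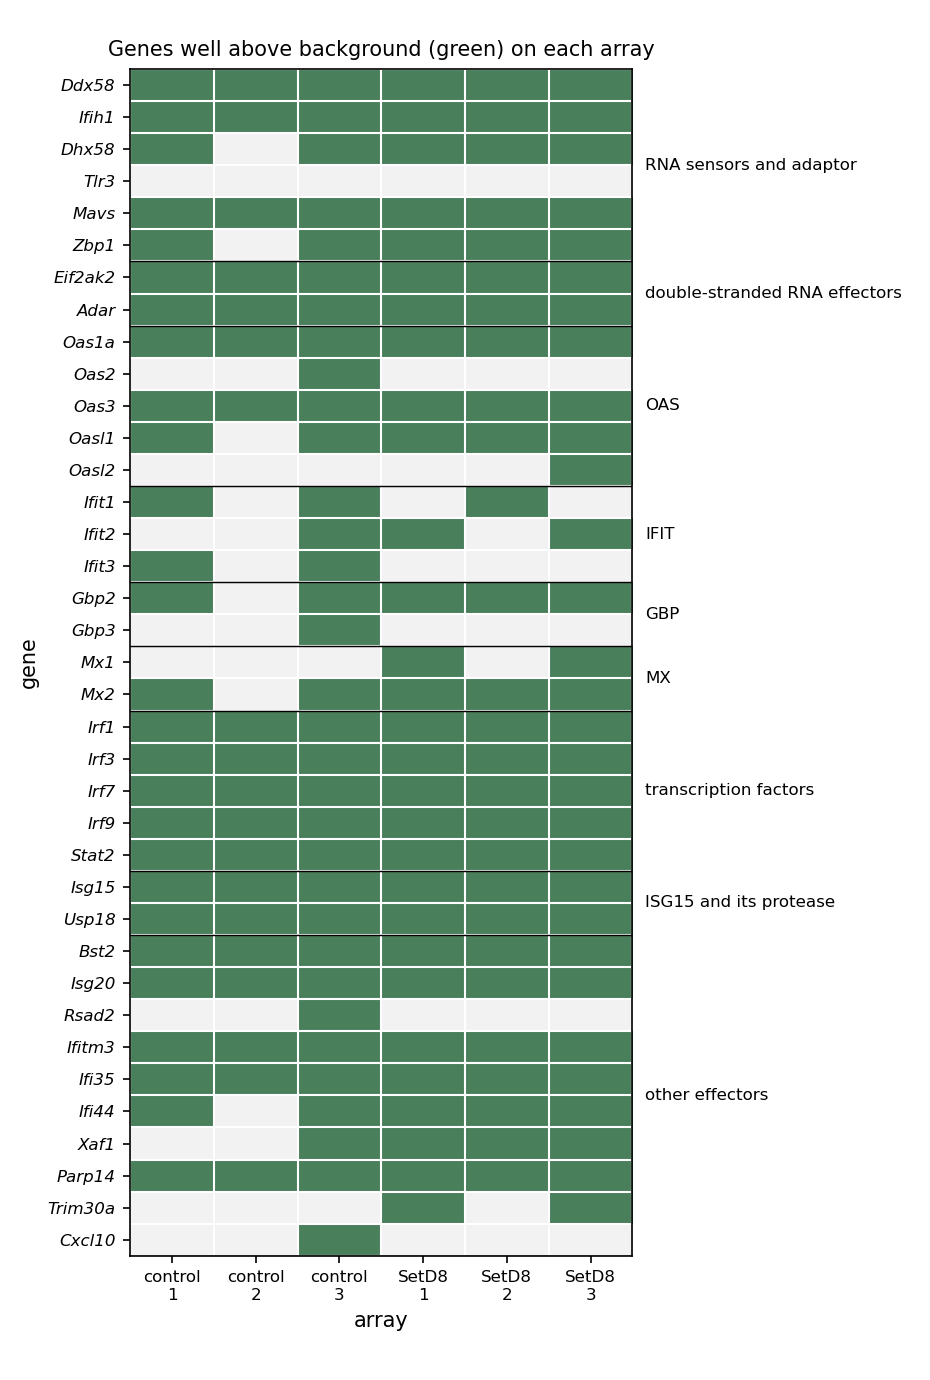
Detection of the 37 interferon-induced genes (rows, grouped by role) on the 3 control and 3 SetD8 siRNA arrays (columns). Green cells mark genes with at least 1 probe well above background; the transcription factors are green throughout, while Tlr3 is green on no array and most pale cells lie in the control 2 column and in the IFIT, Oas2, Oasl2 and Cxcl10 rows.

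Of the 19 genes detected on all 6 arrays, 17 had a higher mean after SetD8 siRNA at the 75th percentile scaling and 19 in the quantile setting. Over the 10821 genes so detected the shares were 39.7% and 49.5%. In the 2 main fits, 1 of the 26 measured genes, Bst2, rose past the threshold. It did so in the quantile setting, where 1.46% of all genes did, and not at the 75th percentile scaling, where 0% did. The quantile setting was added because the first had given no calls. Bst2 encodes tetherin, a membrane protein that holds budding virus particles at the cell surface, and its level was 3.31-fold higher. Oas3 and Ddx58 came next by adjusted p, with 1.51-fold and 1.62-fold higher means that missed the threshold. No measured gene passed it downward in these 2 fits. At the other end, the double-stranded RNA effectors Eif2ak2 and Adar, the transcription factor Irf3 and the antiviral genes Ifitm3 and Ifi44 had differences smaller than or close to their standard errors.

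The 26 measured genes are not all alike in how they were kept. Of them, 7 passed the detection filter only through the SetD8 siRNA group (Dhx58, Zbp1, Oasl1, Gbp2, Mx2, Ifi44 and Xaf1) and none only through the control group. The filter favours a higher value after SetD8 siRNA in those 7, so counts and medians that include them are given as a description, and the 19 genes detected on all 6 arrays are given beside them. Over those 19 the median difference was 0.34 at the 75th percentile scaling, against -0.10 over the 10821 genes detected on all arrays, and 17 were positive, against 39.7%. In the quantile setting the median was 0.45, against -0.0030, and 19 of 19 were positive, against 49.5%. All 3 SetD8 siRNA arrays lay above all 3 controls for 7 of the 19 at the first scaling (5.97% of the 10821) and for 11 in the quantile setting (16.3%), and below them for 0 in both.

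At the 75th percentile scaling, limma called 0 of the 26 genes and 0 of all 14429 genes in either direction (0% called). At an unadjusted p under 0.05, 5 of the 26 were higher (Bst2, Irf1, Xaf1, Oas3 and Gbp2), where 2.53% of all genes were, and 0 were lower, where 0.534% were. Of these 5, Xaf1 and Gbp2 were kept only through the SetD8 siRNA group. All 3 SetD8 siRNA arrays lay above all 3 controls for 10 of the 26, against 5.43% of all genes, and below them for none, against 2.11%. A positive difference was found for 24 of 26 genes, against 53.2% of all genes, and the median difference was 0.69 on the log2 scale, against 0.05 over all genes. After normexp and quantile normalization, 1 of 26 genes was called higher, where 1.46% of all genes were, and 0 lower, where 0.236% were. At an unadjusted p under 0.05, 10 were higher (9.38% of all genes) and 0 lower (6.4%). Groups did not overlap, with SetD8 siRNA higher, for 13 of 26 genes (13.7% of all genes) and with SetD8 siRNA lower for 0 (9.94%). The median difference was 0.32, against 0.03 over all genes, and 25 of 26 were positive, against 55.1%. Scaling each array to its median lowered the median of all genes to -0.45 and left 15 of 26 genes positive with a median of 0.19; no gene of the set was called there. With arrays weighted by their estimated quality, limma called 11 of the 26 genes (among them Gbp2, Mx2 and Xaf1, kept only through the SetD8 siRNA group) and 1398 of all genes higher at the 75th percentile scaling, and 7 of the 26 and 1142 of all genes higher in the quantile setting. The same weighted fits called 1799 and 915 of all 14429 genes lower, so they called many genes in both directions.

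**Figure D2:**
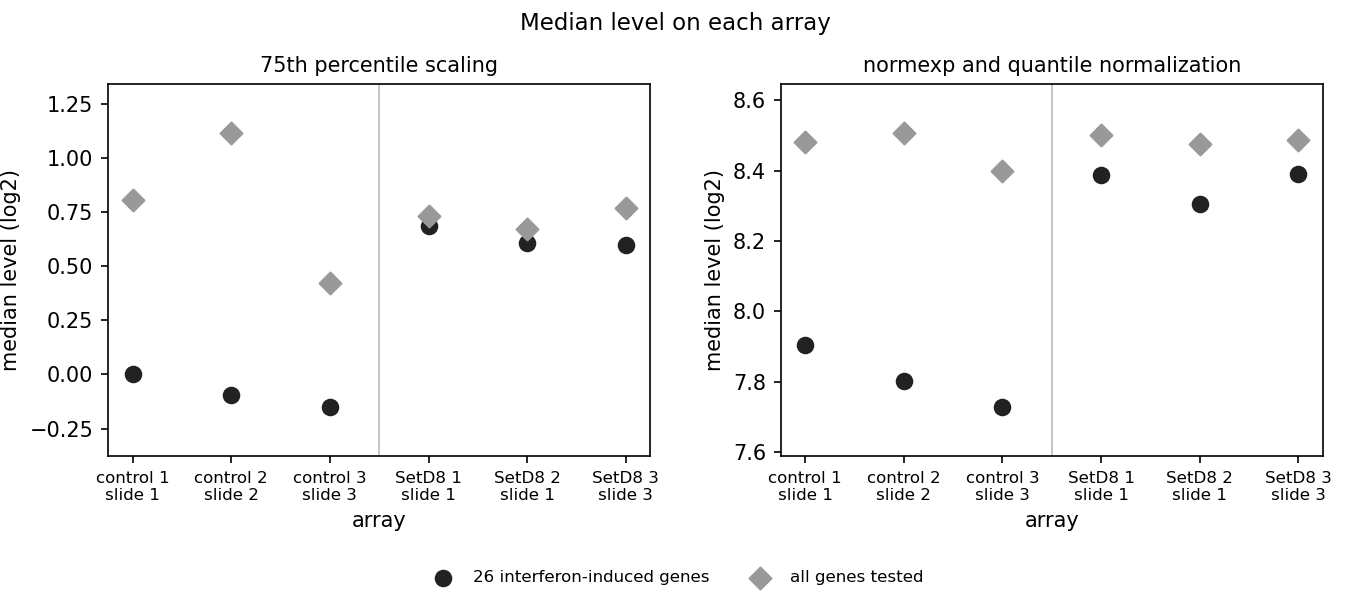
Median level of the 26 measured interferon-induced genes (black circles; 7 of them passed the filter only through the SetD8 siRNA group) and of all genes tested (grey diamonds) on each array, in log2 units, at the 75th percentile scaling (left) and after normexp and quantile normalization (right). The circles sit at -0.15 to 0.00 on the control arrays and at 0.60 to 0.69 on the SetD8 siRNA arrays on the left, while the diamonds show no such step.

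RNA sensors were the first subgroup. Ddx58 encodes RIG-I, a cytosolic helicase that recognises short and uncapped viral RNA. Its levels at the 75th percentile scaling were 0.50, 0.89 and 0.12 on the control arrays and 1.15, 1.04 and 1.34 on the SetD8 siRNA arrays. Every SetD8 siRNA array was above every control, and the difference was 0.67 ± 0.37 there and 0.70 ± 0.13 in the quantile setting (adjusted p = 0.951 and 0.0620). The second Ddx58 probe was not well above background on any array. Ifih1 encodes MDA5, the sensor of long double-stranded RNA, with levels of 0.22, 0.41 and -0.31 in the controls and 0.22, 0.24 and 0.65 after SetD8 siRNA. The groups overlapped, with a difference of 0.26 ± 0.37, and 0.053 without control 3.

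Dhx58 encodes LGP2, the regulatory relative of these helicases that lacks a signalling domain. Its levels were -1.34, -4.98 and -1.20 in the controls and -1.64, -0.61 and -1.73 after SetD8 siRNA. Only control 2, where the probe was not well above background, lay far below the others, and without that array the difference of 1.18 ± 0.99 turned to -0.06. Zbp1, a sensor of left-handed nucleic acid that can trigger cell death, followed the same form, with levels of -1.77, -5.04 and -0.34 in the controls and -1.12, -0.63 and -1.71 after SetD8 siRNA. Its difference of 1.23 ± 1.09 became -0.10 without control 2 and was 0.09 ± 0.30 in the quantile setting.

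Mavs, the mitochondrial adaptor through which both helicase sensors signal, had levels of 4.27, 4.86 and 3.34 in the controls and 4.17, 4.29 and 4.38 after SetD8 siRNA. The groups overlapped at that scaling (0.13 ± 0.46). After quantile normalization they did not, with levels of 11.49, 11.55 and 11.44 against 11.71, 11.75 and 11.74, a difference of 0.24 ± 0.10 (adjusted p = 0.317). Tlr3, the endosomal receptor for double-stranded RNA, was not well above background on any array, with processed signals between 2.87 and 4.20. Across the 5 measured sensors and adaptor the median difference was 0.67 at the 75th percentile scaling and 0.25 in the quantile setting. All 5 were positive in both, against 53.2% and 55.1% of all genes, and limma called 0. At an unadjusted p under 0.05, 0 and 1 were higher, the 1 being Ddx58, where 2.53% and 9.38% of all genes were. Dhx58 and Zbp1, kept only through the SetD8 siRNA group, are in those medians.

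The double-stranded RNA effectors had the smallest median difference of any measured subgroup, 0.06 at the 75th percentile scaling and 0.23 in the quantile setting. Eif2ak2 encodes PKR, a kinase that halts translation when it binds double-stranded RNA. Its levels were 0.95, 1.37 and -0.30 in the controls and 0.82, 0.63 and 1.06 after SetD8 siRNA, so that control 3 alone was low. The difference was 0.17 ± 0.50, and -0.32 without control 3. Adar, an enzyme that edits adenosine to inosine in double-stranded RNA and so marks it as self, had levels of 3.11, 3.46 and 2.45 against 2.97, 2.89 and 3.00. The groups overlapped (-0.05 ± 0.39), and in the quantile setting the difference was 0.10 ± 0.10. Its second probe gave -0.03 and 0.13.

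OAS enzymes make short oligoadenylates when they bind double-stranded RNA, a signal that leads to RNA decay. Oas3, which responds to long double-stranded RNA, had levels of -0.26, -0.58 and -0.15 in the controls and 0.55, 0.59 and 0.55 after SetD8 siRNA. The 3 SetD8 siRNA values lay close together and above every control. The difference was 0.89 ± 0.34 at the 75th percentile scaling (adjusted p = 0.951) and 0.60 ± 0.10 in the quantile setting (adjusted p = 0.0526). Its probe lies at chr5:121203598-121203657 on the minus strand in mm9, the build of the array files. Oas3 passed the threshold in the quantile setting when only probes detected on all 6 arrays were kept (adjusted p = 0.0237) and with array weights (adjusted p = 0.00505).

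Oas1a levels were -0.64, -0.12 and -1.68 in the controls and 0.14, 0.16 and -0.27 after SetD8 siRNA. Control 2 was just above SetD8 3, so the groups overlapped, and the difference was 0.83 ± 0.48, or 0.46 ± 0.30 in the quantile setting. Without control 3 these were 0.39 and 0.14. The dimmer Oas1a probe gave 0.48 and 0.16. Oasl1, an OAS-like protein without enzymatic activity that limits translation of Irf7, had levels of 0.14, -3.69 and 0.02 against 1.22, 0.80 and 0.44. No control reached the lowest SetD8 siRNA array, and control 2, where Oasl1 was not detected, lay far below the rest. The difference was 2.00 ± 0.99, and 0.74 without control 2; in the quantile setting it was 1.17 ± 0.41 (adjusted p = 0.232), or 0.71 without control 2. The 3 measured OAS genes, of which Oasl1 was kept only through the SetD8 siRNA group, had a median difference of 0.89 and 0.60 in the 2 settings.

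**Figure D3:**
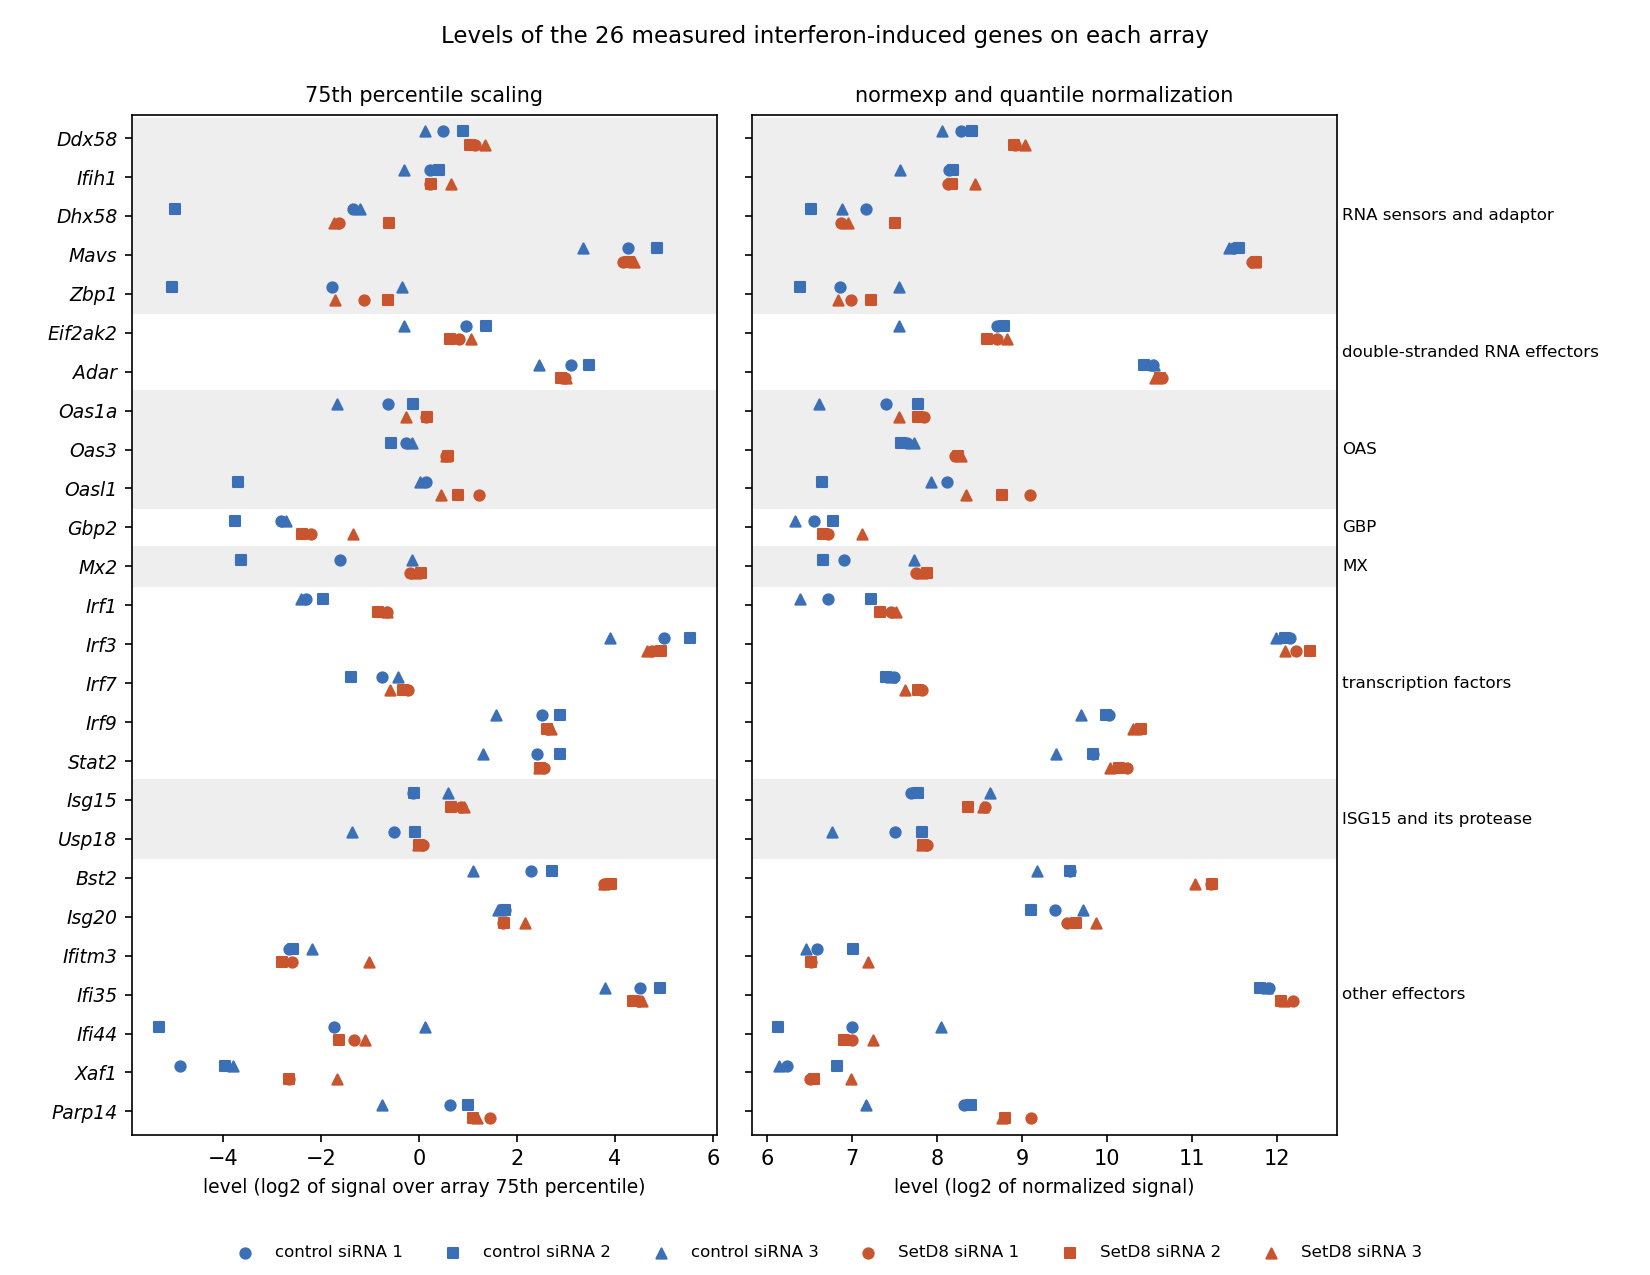
Level of each of the 26 measured genes on each array, at the 75th percentile scaling (left, log2 of signal over the array's 75th percentile) and after normexp and quantile normalization (right, log2 of normalized signal). Blue marks are control and orange marks SetD8 siRNA arrays, with the marker shape giving the replicate; Bst2 shows the widest gap between the colours on the right, and control 2 (blue squares) lies far to the left for Dhx58, Zbp1, Oasl1, Mx2 and Ifi44 on the left. Positions of different genes reflect different probes and are not an order of expression.

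No IFIT gene could be compared. IFIT proteins bind viral RNA that lacks the host cap modification and block its translation. Ifit1 was well above background on control 1, control 3 and SetD8 2, Ifit2 on control 3, SetD8 1 and SetD8 3, and Ifit3 on control 1 and control 3. The Ifit3 levels were -2.89, -5.38 and -2.28 in the controls and -5.27, -5.51 and -5.87 after SetD8 siRNA. It was thus the 1 gene of the family detected in 1 group only, and the control mean was at least 1.24-fold higher than the detection limit in the SetD8 siRNA group. Such a bound sets the mean of the brighter group against, on each dim array, the lowest signal among probes well above background or the probe's own signal, whichever is higher. The Ifit3 control mean includes control 2, where Ifit3 was not detected and lay below SetD8 1. The groups thus overlapped at the 75th percentile scaling, and they overlapped in the quantile setting, where the difference was -0.30. Ifit3 did not pass the filter, and its bound was given only because it was detected in the control group alone. That selection set its direction, so the bound is a description.

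Gbp2 and Gbp3 encode guanylate-binding proteins, GTPases that coat and break open vacuoles that hold pathogens. The Gbp2 levels were -2.82, -3.75 and -2.72 in the controls and -2.21, -2.39 and -1.34 after SetD8 siRNA. All SetD8 siRNA arrays were above all controls, although control 2 was not well above background. The difference was 1.12 ± 0.47 (limma unadjusted p = 0.0452, adjusted p = 0.951), and 0.28 ± 0.18 with overlapping groups in the quantile setting. Gbp2 passed the filter only through the SetD8 siRNA group, which favours a higher value there, so these values are a description. Gbp3 was detected on control 3 alone. The MX GTPases, which trap viral nucleoprotein, split likewise. Mx2 levels were -1.61, -3.62 and -0.15 against -0.18, 0.04 and -0.07. Control 3 lay within the SetD8 siRNA range, and the difference was 1.72 ± 0.80, or 0.72 ± 0.27 in the quantile setting (adjusted p = 0.269). Without control 2, where Mx2 was not detected, the differences were 0.81 and 0.50. Without control 3 the second was 1.04, in a fit that Mx2 entered only through the SetD8 siRNA group. Mx1 was detected on SetD8 1 and SetD8 3 and on no control, with levels of -5.95, -5.38 and -5.86 against -2.94, -3.65 and -2.36, a mean at least 1.71-fold higher after SetD8 siRNA at that scaling. The difference was 0.65 without overlap in the quantile setting. Mx1 did not pass the filter, and its bound was given only because it was detected in the SetD8 siRNA group alone. That selection set its direction, so the bound is a description.

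Transcription factors were detected throughout. Irf1, a factor induced by interferon-γ that activates many antiviral genes directly, had levels of -2.30, -1.95 and -2.40 in the controls and -0.66, -0.84 and -0.66 after SetD8 siRNA. Each group was tight and the gap between them exceeded 1 log2 unit. The difference was 1.49 ± 0.34, with an unadjusted p of 0.00271 and an adjusted p of 0.684 from limma. After quantile normalization it was 0.66 ± 0.22 (adjusted p = 0.204), with levels of 6.72, 7.22 and 6.38 against 7.46, 7.33 and 7.52. A second Irf1 probe, detected on control 3 and SetD8 1 only, gave 0.52 and 0.21 with overlapping groups. Irf1 was called at the 75th percentile scaling when only probes detected on all 6 arrays were kept (adjusted p = 0.0312). An interferon-γ activated site, searched as TTCNNNGAA (its reverse complement has the same form), began at base -90 in 1 of the 2 Irf1 promoter windows; 30% of the 30 genes with a window and 9.55% of all genes had such a match.

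Irf9 and Stat2, which act in the complex that binds the response element, had like patterns. Irf9 levels were 2.50, 2.88 and 1.58 in the controls and 2.64, 2.62 and 2.69 after SetD8 siRNA, and Stat2 levels were 2.40, 2.88 and 1.31 against 2.56, 2.46 and 2.45. In both genes control 2 was highest and control 3 lowest, with differences of 0.33 ± 0.43 and 0.29 ± 0.47. Every SetD8 siRNA array was above every control for both in the quantile setting, with Irf9 at 10.02, 9.99 and 9.69 against 10.39, 10.40 and 10.31, and Stat2 at 9.84, 9.83 and 9.40 against 10.23, 10.14 and 10.04. Those differences were 0.47 ± 0.13 (adjusted p = 0.145) and 0.45 ± 0.16 (adjusted p = 0.229).

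Irf7, the factor that amplifies interferon-α production, had levels of -0.76, -1.39 and -0.42 in the controls and -0.23, -0.33 and -0.59 after SetD8 siRNA. The groups overlapped, with a difference of 0.47 ± 0.39, and 0.29 ± 0.11 without overlap in the quantile setting (adjusted p = 0.274). Irf3, the constitutive factor that RNA sensors activate first, had levels of 4.99, 5.53 and 3.90 against 4.75, 4.93 and 4.65. Its difference was -0.03 ± 0.48 and, in the quantile setting, 0.16 ± 0.12. Over the 5 factors the median difference was 0.33 and 0.45 in the 2 settings. Of the 5, 0 were called in either setting. In the quantile setting 4 had an unadjusted p under 0.05, against 9.38% of all genes in the higher direction, and 4 had SetD8 siRNA arrays above all controls, against 13.7%.

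Isg15 encodes a ubiquitin-like protein that is attached to other proteins, and Usp18 the protease that removes it and damps receptor signalling. Isg15 levels were -0.13, -0.10 and 0.59 in the controls and 0.86, 0.66 and 0.91 after SetD8 siRNA, without overlap, and the difference was 0.69 ± 0.37. On the quantile scale control 3 reached 8.62, above all 3 SetD8 siRNA arrays at 8.56, 8.36 and 8.54, and the difference was 0.46 ± 0.26. The second, dimmer Isg15 probe gave 1.60 with overlapping groups and, in the quantile setting, 0.44 without overlap. That probe was detected on control 3 and on all 3 SetD8 siRNA arrays. Usp18 levels were -0.50, -0.09 and -1.37 against 0.09, 0.01 and -0.01, again without overlap, with a difference of 0.69 ± 0.42. The quantile setting gave 0.48 ± 0.27, with control 2 at 7.82 among the SetD8 siRNA values of 7.88, 7.83 and 7.82. Without control 3 the Usp18 differences were 0.33 and 0.18.

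Among the other effectors, Bst2 stood out. Its levels at the 75th percentile scaling were 2.29, 2.72 and 1.11 in the controls and 3.77, 3.92 and 3.78 after SetD8 siRNA. In the quantile setting they were 9.57, 9.56 and 9.18 against 11.22, 11.24 and 11.04, so each SetD8 siRNA array was more than 1 log2 unit above each control. The difference was 1.79 ± 0.48 at the first scaling (adjusted p = 0.951) and 1.73 ± 0.15 in the quantile setting (adjusted p = 0.0101), the second being the only call among the 26 genes in these 2 fits. Its probe lies at chr8:74058603-74058662 on the minus strand in mm9. Within slide 1 the difference in the quantile setting was 1.66 and within slide 3 it was 1.86, and with the slide as a block it was 1.75 (adjusted p = 0.0409), in a fit that called 0.0901% of all genes higher. The call was lost without control 1, SetD8 1, SetD8 2 or SetD8 3 (adjusted p = 0.0676, 0.0818, 0.0838 and 0.0664), with differences of 1.69 to 1.79 in those 4 fits. At the first scaling Bst2 was called under some alternatives: without control 2 (2.12, adjusted p = 0.0176), with only probes detected on all 6 arrays (adjusted p = 0.00267), with array weights (adjusted p = 0.00203) and with the slide as a block (2.03, adjusted p = 0.00327), a fit where limma estimated 1 spread for all genes and called 0.818% of them higher.

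Xaf1, a pro-apoptotic antagonist of inhibitor-of-apoptosis proteins, had levels of -4.88, -3.95 and -3.80 in the controls and -2.66, -2.66 and -1.68 after SetD8 siRNA. This probe was not well above background on any control and was on all 3 SetD8 siRNA arrays, and the SetD8 siRNA mean was at least 2.51-fold higher. The difference of the measured signals was 1.88 ± 0.47 (adjusted p = 0.893), and 0.28 ± 0.23 with overlapping groups in the quantile setting. Because the probe passed the filter only through the group where it was high, its direction was set by the filter and these values are a description. The first scaling gave 2.18 with the slide as a block and 2.01 without control 2. The second Xaf1 probe, detected on control 3, SetD8 1 and SetD8 3, gave 1.37 and 0.23.

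Parp14, an ADP-ribosyltransferase, had levels of 0.63, 1.00 and -0.76 in the controls and 1.45, 1.10 and 1.19 after SetD8 siRNA. Every SetD8 siRNA array was above every control, with control 3 far below the other controls. The difference was 0.96 ± 0.51 and, in the quantile setting, 0.92 ± 0.34 (adjusted p = 0.250); without control 3 they were 0.43 and 0.53. Trim30a, a tripartite-motif protein, was detected on SetD8 1 and SetD8 3 and on no control, with levels of -4.25, -3.24 and -4.43 in the controls and -3.22, -3.52 and -2.11 after SetD8 siRNA. Its SetD8 siRNA mean was at least 1.76-fold higher at that scaling, but the groups overlapped in both settings and the difference was 0.19 in the quantile setting. That mean includes SetD8 2, where Trim30a was not detected and lay below control 2. Trim30a did not pass the filter, and its bound was given only because it was detected in the SetD8 siRNA group alone. That selection set its direction, so the bound is a description.

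Ifi44, a cytoplasmic protein of unsettled function, ranged most among the controls, at -1.74, -5.31 and 0.12 against -1.33, -1.63 and -1.10. The SetD8 siRNA values fell within the control range, and the difference was 0.95 ± 1.21, or -0.01 ± 0.46 in the quantile setting. Ifi35, a partner of the STAT-interacting protein NMI, had levels of 4.51, 4.91 and 3.80 against 4.49, 4.36 and 4.54. Its difference was 0.06 ± 0.40, and 0.24 ± 0.11 without overlap in the quantile setting. Isg20, an exonuclease that degrades RNA, had levels of 1.75, 1.76 and 1.62 against 1.71, 1.74 and 2.17, a difference of 0.16 ± 0.34. Ifitm3, which blocks virus entry at the endosome, had levels of -2.65, -2.56 and -2.18 against -2.58, -2.79 and -1.01. SetD8 3 alone was high, and the difference was 0.34 ± 0.53, or -0.22 without SetD8 3. Rsad2, the radical SAM enzyme viperin, and Cxcl10, a chemokine for T cells, were each detected on control 3 alone, and no fold is given for them.

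**Figure D4:**
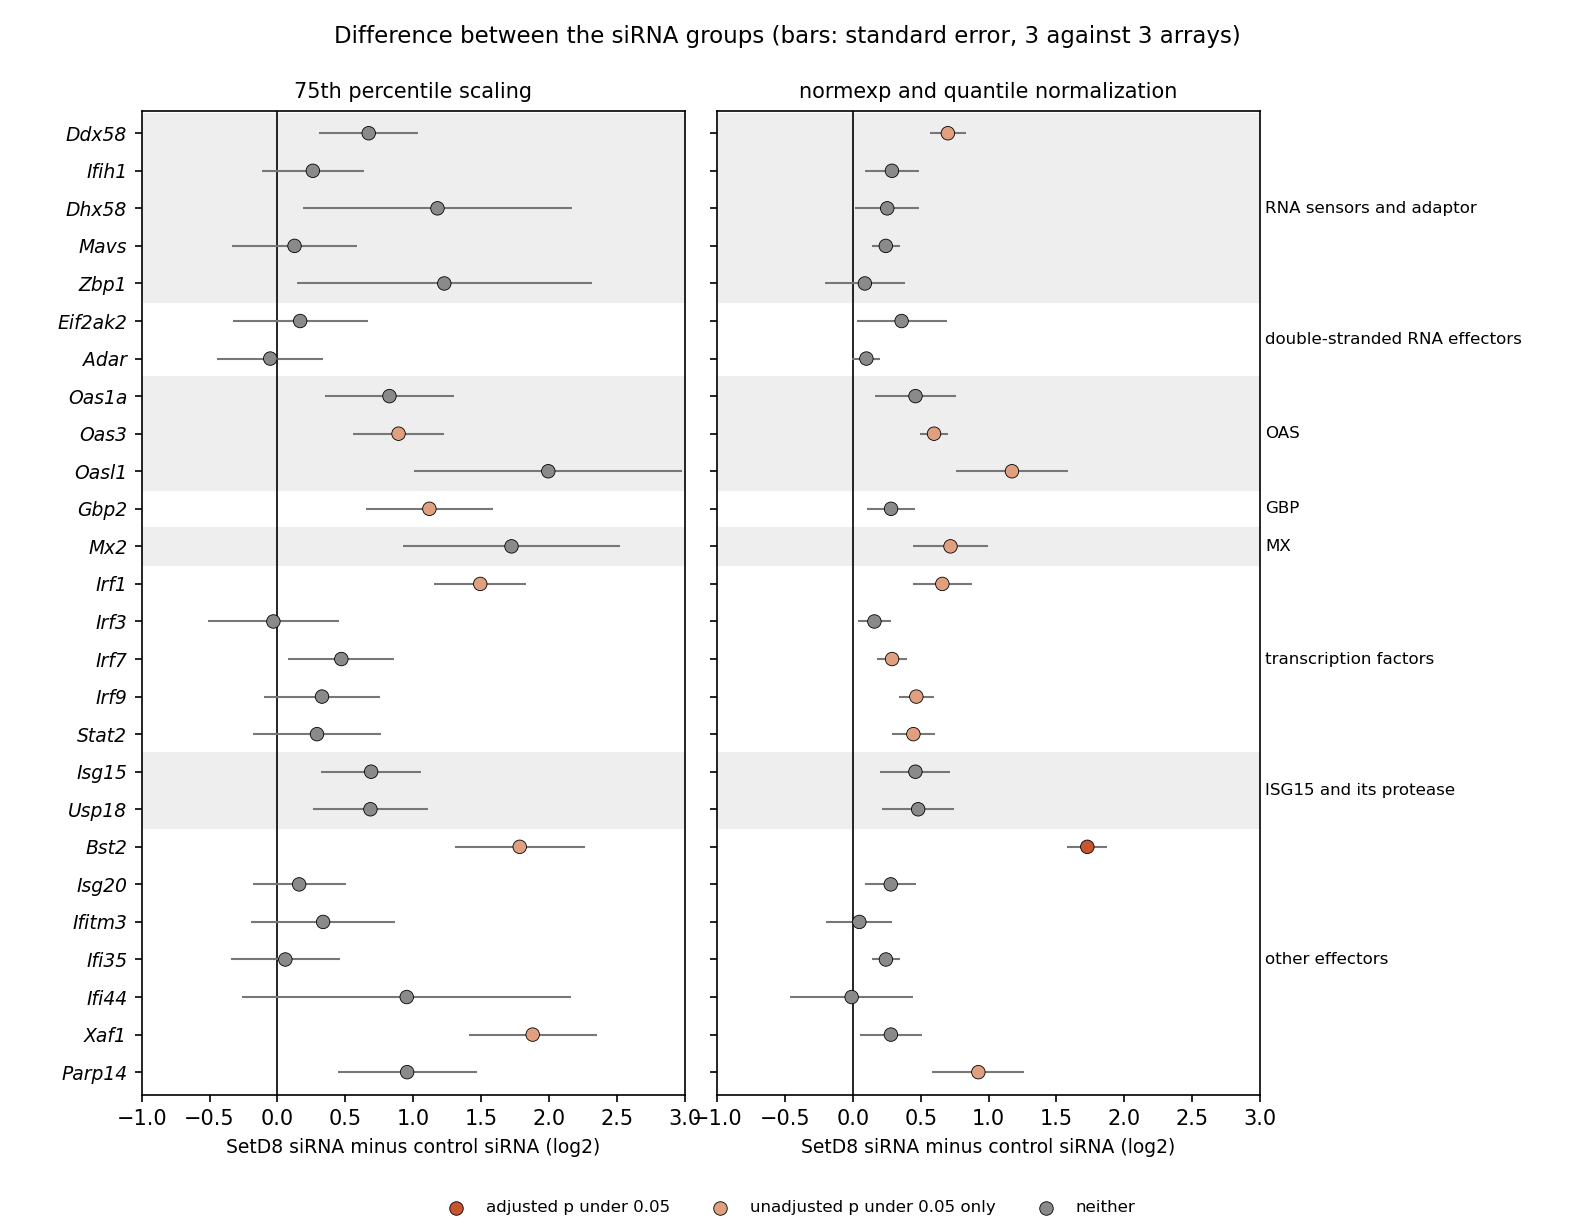
Difference between SetD8 siRNA and control siRNA (log2, points) with its standard error (bars) for the 26 measured genes, at the 75th percentile scaling (left) and after normexp and quantile normalization (right). Orange marks an adjusted p under 0.05 (Bst2 on the right alone), pale orange an unadjusted p under 0.05 only, and grey neither; all but 2 points lie right of 0 on the left and all but 1 on the right.

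Within slides, where control 2 takes no part, the quantile setting gave a positive difference for 23 of 26 genes on slide 1 and for 23 of 26 on slide 3, and for 21 on both. Over all genes with a value on every array the shares were 51.0%, 55.6% and 31.9%. The median difference of the 26 genes was 0.30 on slide 1 and 0.58 on slide 3, against 0.01 and 0.06 over all genes. At the 75th percentile scaling 15 of 26 were positive on both slides, against 21.6% of all genes. The 7 genes kept only through the SetD8 siRNA group are among these counts. Isg15 and Zbp1 were positive on slide 1 only (0.77 against -0.08, and 0.26 against -0.71), Eif2ak2 and Ifitm3 on slide 3 only (1.27 against -0.05, and 0.73 against -0.09), and Ifi44 on neither. Slide 1 compares 1 control with 2 SetD8 siRNA arrays and slide 3 compares 1 with 1, so these values carry no test.

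**Figure D5:**
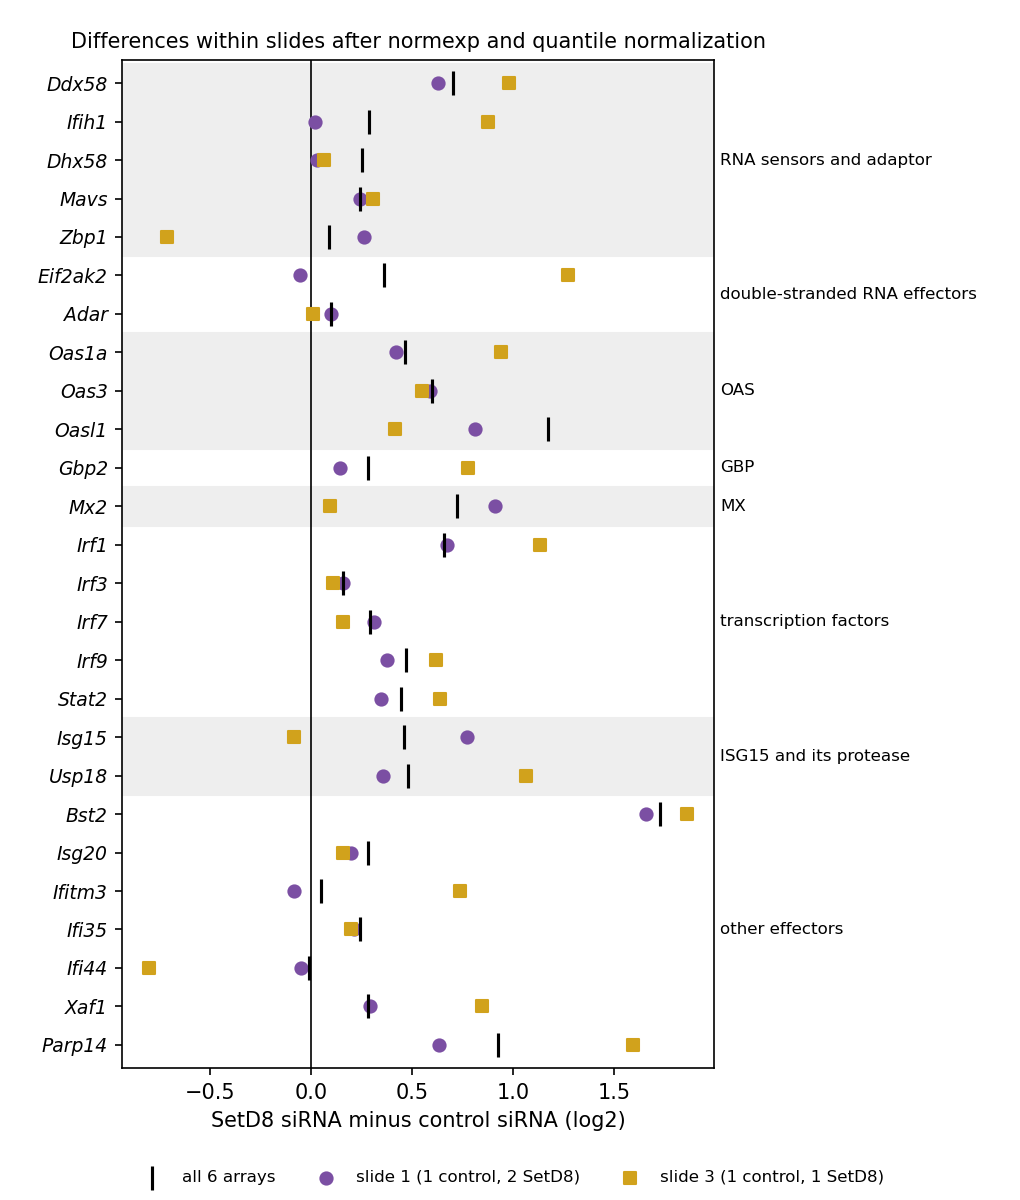
Difference between SetD8 siRNA and control siRNA (log2) after normexp and quantile normalization, from all 6 arrays (vertical ticks), within slide 1 (circles) and within slide 3 (squares). Bst2 lies at 1.66 to 1.86 in all 3, whereas Zbp1 and Ifi44 are below 0 on slide 3 and Eif2ak2 lies at 1.27 on slide 3 and -0.05 on slide 1.

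The rest of the pathway was taken from lists of its other genes. Of 12 interferon ligand genes with a probe, 4 to 11 were well above background on the control arrays and 8 to 9 on the SetD8 siRNA arrays. Of these, 8 were tested and limma called 0 in either setting. At an unadjusted p under 0.05, 0 and 1 were higher (2.53% and 9.38% of all genes). The median difference was 0.73 at the 75th percentile scaling and 0.23 in the quantile setting, against 0.05 and 0.03 over all genes. Some of the 8 were detected on 4 or 5 arrays only, so they passed the filter through 1 group, as did some of the 46 genes below. The filter favours a higher value in that group, so these medians are a description. Of the 9 tested receptors, kinases and STATs, 0 were called (0 and 1 at an unadjusted p under 0.05), with medians of -0.10 and 0.09. Among 8 negative regulators 1 was called, in the quantile setting, where 1.46% of all genes were called higher. It was Ptpn6, the phosphatase SHP-1, which rose by 0.84 ± 0.13 (adjusted p = 0.0402), while the list's medians were -0.14 and -0.03. Of 46 tested interferon-induced genes outside the 37, Lgals9, which encodes galectin-9, rose by 1.15 ± 0.12 (adjusted p = 0.0147) and Shisa5 by 1.29 ± 0.13 (adjusted p = 0.0108) in the quantile setting. Thus 2 of the 46 were called there, where 1.46% of all genes were, and the other 44 were not. At an unadjusted p under 0.05, 15 of the 46 were higher (9.38% of all genes), and 17 had SetD8 siRNA arrays above all controls (13.7%); 34 had a positive difference and the median was 0.28. None of the genes in these lists was called at the first scaling (0%); 2 of the 46 were higher at an unadjusted p under 0.05 (2.53%), 5 lay above all controls (5.43%), and the median was 0.32.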

How the data were processed

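Total RNA of 6 samples was labelled with Cy3 and hybridised to 1-colour Agilent arrays. The deposited files are scanner output: per the file headers, Feature Extraction 10.7.3.1 made the background-subtracted processed signal and the mean and background intensity of each spot, with probe positions in mm9. The submitters' processing notes name limma, without a version. The deposited value table held the same processed intensity, not scaled between arrays.

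Control spots and 139 to 176 outlier spots per array were left out, and spots of 1 probe were averaged. The first setting was log2 of the processed signal minus the array's 75th percentile (132 to 258). The second was normexp (offset 50) on the mean and background signals, then quantile normalization; it was added because the first had given no calls. Probes were named through RefSeq accession (26855), symbol (3757) or synonym (625); 24444 were unnamed. limma 3.58.1 (R 4.3.3) was fitted to all 14429 genes, with Benjamini-Hochberg adjustment and a threshold of 0.05, and checked on simulated data. The number of arrays limits the precision. The genes and lists were chosen with earlier results of these data known. Every gene of the set is accounted for; other pathway genes are named where called. Some results for other pathway and marker genes are not reported here. The labels do not say whether replicate numbers pair the arrays, and the main fits did not pair them. Alternatives, 14 for the first setting and 11 for the second, covered correction, scaling, filters, probes, moderation, weights, blocks, threshold and left-out arrays.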

Additional observations from a re-analysis of the deposited data

How the results depend on the processing

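At the 75th percentile scaling the count of genes called higher was 1 after normexp and quantile normalization, after quantile normalization of the processed signal and with the percentile over probes detected on all arrays, 2 with only probes detected on all 6 arrays and with the slide as a block, 11 with array weights (Bst2, Ddx58, Gbp2, Irf1, Isg15, Mx2, Oas1a, Oas3, Parp14, Usp18 and Xaf1), 5 at an unadjusted p under 0.05 and 0 to 2 without 1 array, the 2 being Bst2 and Xaf1 without control 2 (the Xaf1 probe passed the filter only through the SetD8 siRNA group); the count called lower was 0 to 1, the 1 being Ifit3 without control 2, which passed the filter there only through the control group, so that the filter set its direction. The fit with array weights called 1398 of all genes higher and 1799 lower. The median difference was 0.32 with normexp under either scaling, 0.19 with median scaling (15 genes positive), 0.82 with the percentile over detected probes, 0.34 with probes on all 6 arrays, 0.47 with array weights, 0.55 with the slide block and 0.48 to 0.76 without 1 array. In the quantile setting the count was 3 with probes on all 6 arrays, 2 with trend and robust moderation, 7 with array weights, 10 at an unadjusted p, 0 with a replicate block (Bst2 adjusted p = 0.140) and 0 to 2 without 1 array, and the median was 0.45 with probes on all 6 arrays, 0.44 with an offset of 16, 0.44 with the slide block, 0.58 within slide 3 and 0.30 to 0.39 without 1 array. In the quantile setting the deviations of same-numbered arrays from their group means correlated at 0.187, -0.252 and -0.191. Control 1 shared a slide with SetD8 1 and control 3 with SetD8 3. The labels do not say whether the numbers pair the arrays, and these correlations cannot decide it. Setd8 passed the threshold at -2.07, -2.24, -2.10 and -2.11 under the normalizations, at -2.24 with probes on all 6 arrays and unadjusted, at -2.42 with weights and at -1.93 with the slide block; in the quantile setting it missed it with the replicate block (-2.07) and in 4 of 6 fits without 1 array (-2.18 to -2.0).

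Signs turned only for differences near their errors, and the cause was not tested. At the 75th percentile scaling, median scaling gave Ifih1 -0.24, Mavs -0.37, Eif2ak2 -0.33, Irf7 -0.028, Irf9 -0.17, Stat2 -0.21, Isg20 -0.34, Ifitm3 -0.16 and Ifi35 -0.44, the slide block gave Dhx58 -0.10, Zbp1 -0.076, Adar 0.13, Irf3 0.24 and Ifi44 -0.38, and array weights gave Eif2ak2 -0.12 and Ifi35 -0.047. Adar was 0.10, 0.086 and 0.076, and Irf3 0.16, 0.15 and 0.10, under the quantile setting, quantile normalization and the percentile over detected probes, and Ifi44 was -0.0091 in the quantile setting. Without 1 array the ranges were Dhx58 -0.056 to 1.83, Mavs -0.28 to 0.48, Zbp1 -0.10 to 2.25, Eif2ak2 -0.32 to 0.51, Adar -0.33 to 0.18, Irf3 -0.48 to 0.33, Irf9 -0.042 to 0.61, Stat2 -0.15 to 0.63, Ifitm3 -0.22 to 0.67, Ifi35 -0.25 to 0.31 and Ifi44 -0.55 to 2.17. In the quantile setting, array weights gave Dhx58 -0.044 and Ifi44 0.061, the slide block Zbp1 -0.16 and an offset of 16 Ifi44 0.088, and without 1 array the ranges were Zbp1 -0.18 to 0.40, Eif2ak2 -0.039 to 0.58, Ifitm3 -0.18 to 0.21 and Ifi44 -0.48 to 0.49. Signal over background limits Tlr3, Oas2, Oasl2, Rsad2, Gbp3, Mx1, Trim30a, Cxcl10 and the IFIT genes, for which no difference could be tested on all arrays.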
